A study of Mus musculus with 19 samples.

Results

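Mouse colonic epithelial cells in which the transcription factor gene Ascl2 had been deleted were compared with crypt cells that were rebuilding the stem cell compartment after their Lgr5-expressing neighbours had been killed. The comparison rests on 4 of the 19 samples of the series, which are 2 RNA sequencing libraries of Ascl2 knockout cells and 2 of regenerating cells, and it was read across all 24062 genes of the deposited count table. Knockout cells carried Ascl2Fl/Fl and Lgr5EGFP-Cre+, in which the Lgr5 locus drives both the green reporter and Cre, so that deletion was limited to Lgr5-expressing cells and their progeny; the mice received tamoxifen at 2 mg on the first 2 days and 1 mg on the next. Regenerating cells had a wild-type genotype with the reporters Ascl2(mCh) and Lgr5Dtr-Egfp+ and came from mice given 4 injections of diphtheria toxin at 50 ug/kg, one every other day. A further 3 libraries of resting wild-type stem cells, with the same reporters as the regenerating cells, entered the fit and are given as levels only. All mice had a mixed C57BL/6 and 129/Sv background, all cells were sorted on mCherry or GFP, and all libraries were made with a SMARTer low-input kit. Genotype, Lgr5 allele, sorted reporter and drug therefore changed together, and their parts in any difference cannot be told apart. Nothing states whether replicates came from separate mice, so p-values measure the spread between these libraries.

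Ascl2 is a basic helix-loop-helix factor that binds DNA at E-boxes and, with Wnt signals from the niche, maintains the identity of stem cells at the crypt base. When Lgr5-expressing stem cells are lost, progenitors that had already begun secretory or absorptive differentiation can return to the crypt base and refill the pool. Secretory fate in the crypt is set by Atoh1 where Notch signalling is low, and the deep crypt secretory cells of the colon, which express Reg4 and Kit, sit between the stem cells and supply them with Notch and EGF ligands.

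Ascl2 (chromosome 7, 142966822 to 142969264 in RefSeq GRCm38.p6) had 53.8 and 59.2 CPM in knockout and 85.7 and 57.0 CPM in regenerating cells; CPM gives a gene's reads relative to the library's assigned reads, scaled by the trimmed mean of M-values (TMM). The 2 groups overlapped, and the difference did not pass the test (log2 fold change -0.34, adjusted p = 0.414). With an offset for the genomic span of genes, explained further on, it was -1.41 with adjusted p = 0.00564. The 3 wild-type libraries had a mean of 121.7 CPM. Reads over the whole gene cannot show how far the floxed part was removed. Lgr5 (chromosome 10, 115450314 to 115587780), the receptor that marks crypt base stem cells and was the target of ablation, stood at 3.71 and 10.3 CPM in knockout and at 1.79 and 7.18 CPM in regenerating cells, with a wild-type mean of 41.1 CPM. Its log2 fold change of 0.64 did not pass (adjusted p = 0.524) and turned negative by library size (-0.14), without knockout replicate 2 (-0.28) or without regenerating replicate 1 (-0.06).

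The libraries held 17926856 and 16553279 reads assigned to genes in knockout and 30074569 and 28071012 in regenerating cells. Xist stood at 50.0 and 0.0916 CPM in knockout and at 0.0299 and 0.0322 CPM in regenerating cells, while the Y-linked Ddx3y stood at 0.453 and 25.0 CPM in knockout and at 31.8 and 24.3 CPM in regenerating cells, so that knockout replicate 1 differed from the other 3 libraries. Reads that aligned to several places, which entered no gene count, made up 51.2 and 51.4% of reads in knockout against 38.6 and 36.4% in regenerating cells, and the 100 most abundant genes took 32.9 and 34.6% of assigned reads against 23.1 and 24.5%. The epithelial cadherin, keratin and claudin list summed to 29280 and 27000 CPM in knockout and 18140 and 19340 CPM in regenerating cells. Bulk libraries cannot tell fewer cells of a type from less RNA per cell. The scale also matters, because the TMM factors were 0.616 and 0.66 in knockout and 1.11 in both regenerating libraries.

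Of 13911 genes tested with edgeR's quasi-likelihood test, 4362 (31.4%) passed an adjusted p of 0.05, of which 2139 (15.4% of those tested) were higher and 2223 (16%) lower in knockout than in regenerating cells. Counts in the gene lists below stand against these shares. Some lie near them, such as the rises of the Myc (15.2%) and EGF (14.3%) lists and the falls of the interleukin 11 list (13.3%). Without any adjustment 5753 genes had a p below 0.05. At least 2-fold differences made up 3938 of the calls, and at least 4-fold ones 923 rises and 572 falls. All called genes had both knockout libraries on one side of both regenerating libraries, as did 69.8% of all genes tested. The split between rises and falls depended on the scale: 49% of calls were rises with TMM, and 19.5% by library size alone (1070 rises and 4408 falls), where the median of all genes moved to a log2 fold change of -0.84, against -0.04. Leaving out knockout replicate 1 gave 2905 calls, against 2729 without regenerating replicate 1 and 2446 without regenerating replicate 2.

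Among genes of deep crypt secretory cells 5 of 14 fell in knockout cells, Reg4, Cma1, Nov and Kit among them, while 2 rose and 7 did not pass. Reg4 (chromosome 3, 98222138 to 98236748), a secreted lectin-like protein of deep crypt secretory cells, had 1371 and 3145 CPM in knockout and 9192 and 14320 CPM in regenerating cells (log2 fold change -2.38 ± 0.50 (SE), adjusted p = 0.00687), with 342, 344 and 704 CPM in wild type. Both knockout libraries lay below both regenerating ones and above all wild-type ones. Cma1, a chymase gene, had 19.2 and 43.3 CPM in knockout and 599 and 467 CPM in regenerating cells (-4.09 ± 0.66, adjusted p = 0.00187), the 2 groups being far apart. Nov (Ccn3 in RefSeq; chromosome 15, 54745910 to 54753762), which encodes a matricellular protein, had 54.3 and 86.2 CPM in knockout, 999.7 and 2259 CPM in regenerating and 52.9, 58.6 and 83.0 CPM in wild-type cells (-4.53 ± 0.47, adjusted p = 0.000271). The knockout values of Nov thus lay at the wild-type values, and the regenerating values stood apart from both. Kit, the receptor for stem cell factor, had 3.62 and 11 CPM in knockout and 45.4 and 70.2 CPM in regenerating cells (-2.98 ± 0.51). The other fall was the Notch ligand Dll4 (-2.33, adjusted p = 0.0223, named after its values were seen and lost without any 1 of the 4 libraries). In the same list 2 genes rose, Agr2 (1.04) and the chemokine gene Ccl9 (1.70), and both calls were lost without knockout replicate 1 or regenerating replicate 1. Spink4, a goblet and deep crypt peptide named after its values were seen, gave an example of no separation, with 9023 and 17970 CPM in knockout and 10350 and 16300 CPM in regenerating cells (adjusted p = 0.985). Over the list the log2 fold changes had a median of -1.67, against -0.04 over all genes tested.

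**Figure D1:**
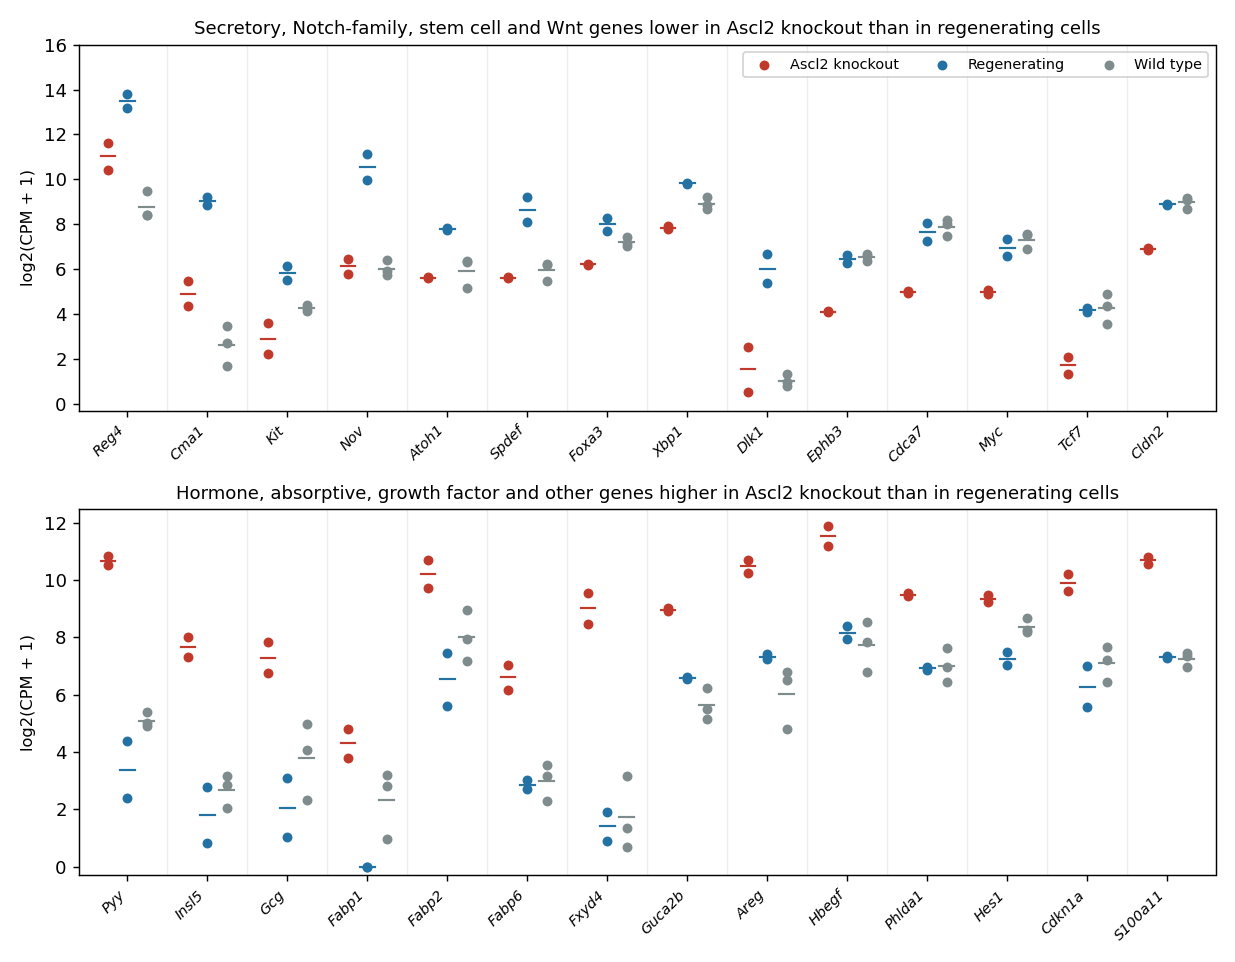
Level of selected genes in each library, as log2(CPM + 1); each point is 1 library (2 Ascl2 knockout, 2 regenerating, 3 wild type) and each bar is the group mean. In the upper panel both knockout libraries lie below both regenerating libraries for all 14 genes; for the 14 genes of the lower panel they are higher in both.

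Of the transcription factors of the secretory lineage, Atoh1, Spdef, Xbp1 and Foxa3 fell. Atoh1 (chromosome 6, 64729125 to 64731245), which commits crypt progenitors to secretory fate, had 49.0 and 47.4 CPM in knockout and 212 and 229 CPM in regenerating cells (-2.20 ± 0.38, adjusted p = 0.00281), with 80.5, 34.5 and 77.7 CPM in wild type. Spdef (chromosome 17, 27714446 to 27731003), which acts downstream of Atoh1 in goblet cell maturation, had 48.5 and 48.2 CPM in knockout and 275 and 586 CPM in regenerating cells (-3.15 ± 0.41, adjusted p = 0.000682). For both factors the knockout libraries agreed closely with each other, lay far below the regenerating libraries and fell within the range of the wild-type libraries. Xbp1, the factor that expands the secretory apparatus, had 238 and 220 CPM in knockout and 876 and 926 CPM in regenerating cells (-1.98 ± 0.24). Foxa3 followed with 72.5 and 74.7 CPM in knockout and 206 and 312 CPM in regenerating cells (-1.82 ± 0.26). Of 22 tested factors 8 fell, 2 rose and 12 did not pass (median -0.90); 4 fell without knockout replicate 1 or without regenerating replicate 2. The rises were Klf4, a factor of goblet and differentiated surface cells (307 and 263 CPM in knockout, 78.3 and 96.4 CPM in regenerating cells), and Gfi1b, which rested on 5 reads in knockout and none in regenerating cells; both were lost without either regenerating replicate.

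Goblet cell genes did not move as a block. Of 26 tested, 6 fell and 3 rose (median -0.52), and 11 fell by library size. The median was -1.02 without regenerating replicate 1 and -0.11 without regenerating replicate 2. Hepacam2 had 53.2 and 77.4 CPM in knockout and 381 and 582 CPM in regenerating cells (-2.88 ± 0.37, adjusted p = 0.000666). The calcium pump gene Atp2a3 stood at 133 and 141 CPM in knockout and 543 and 1051 CPM in regenerating cells (-2.54 ± 0.33), and the stress sensor of mucous cells Ern2 at 47.7 and 56.1 CPM against 199 and 364 CPM (-2.44 ± 0.33). In these 3 genes the 2 groups were well apart. The genes that rose encode small secreted proteins. The trefoil peptide gene Tff3 had 3721 and 5645 CPM in knockout and 627 and 930 CPM in regenerating cells (2.59 ± 0.65, adjusted p = 0.0158), and Guca2a, which encodes guanylin, had 11340 and 10870 CPM against 875 and 1709 CPM (3.10 ± 0.70, adjusted p = 0.00964). With Agr2 these are the 3 rises of the list, of which none held without regenerating replicate 1; the change of Guca2a was 1.72 with offsets for genomic span (adjusted p = 0.0873). The gel-forming mucin gene Muc2 had 926 and 764 CPM in knockout and 1013 and 3483 CPM in regenerating cells and did not pass (-1.41, adjusted p = 0.152).

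Many genes of the mucin glycosylation list, which is not limited to enzymes that act on mucins alone, fell in knockout cells. Of 33 genes tested 20 fell and none rose with all libraries, also at an unadjusted p below 0.05 or with DESeq2. The median log2 fold change was -1.41, and -1.27 to -1.62 with any 1 of the 4 libraries left out. In those fits fewer genes fell, and not all were without a rise. Both knockout libraries lay below both regenerating ones in 29 of the 33, including 9 of the 13 that did not pass, against 37% of all genes tested. B3gnt3, which extends core 1 O-glycans, had 71.8 and 68.9 CPM in knockout and 274 and 355 CPM in regenerating cells (-2.16 ± 0.23, adjusted p = 0.000328). B3gnt6, the core 3 synthase of colonic mucin, had 2.99 and 3.12 CPM in knockout and 31.4 and 113 CPM in regenerating cells (-4.56 ± 0.89, adjusted p = 0.00472). The sialyltransferase gene St6galnac6 had 167 and 246 CPM in knockout and 1033 and 1608 CPM in regenerating cells (-2.68 ± 0.33), and the fucosyltransferase genes Fut4 and Fut8 fell by 3.04 and 2.06. Levels in wild type were between those of the other groups for B3gnt6 (4.43, 5.64 and 19.6 CPM) and St6galnac6 (392.4, 577.9 and 477.5 CPM). The same held for Fut8 (93.6, 74.6 and 99.7 CPM) and Fut4 (59.15, 46.35 and 42.68 CPM). For B3gnt3 wild type (295.8, 285.4 and 241 CPM) lay near the regenerating levels and above the knockout ones.

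**Figure D2:**
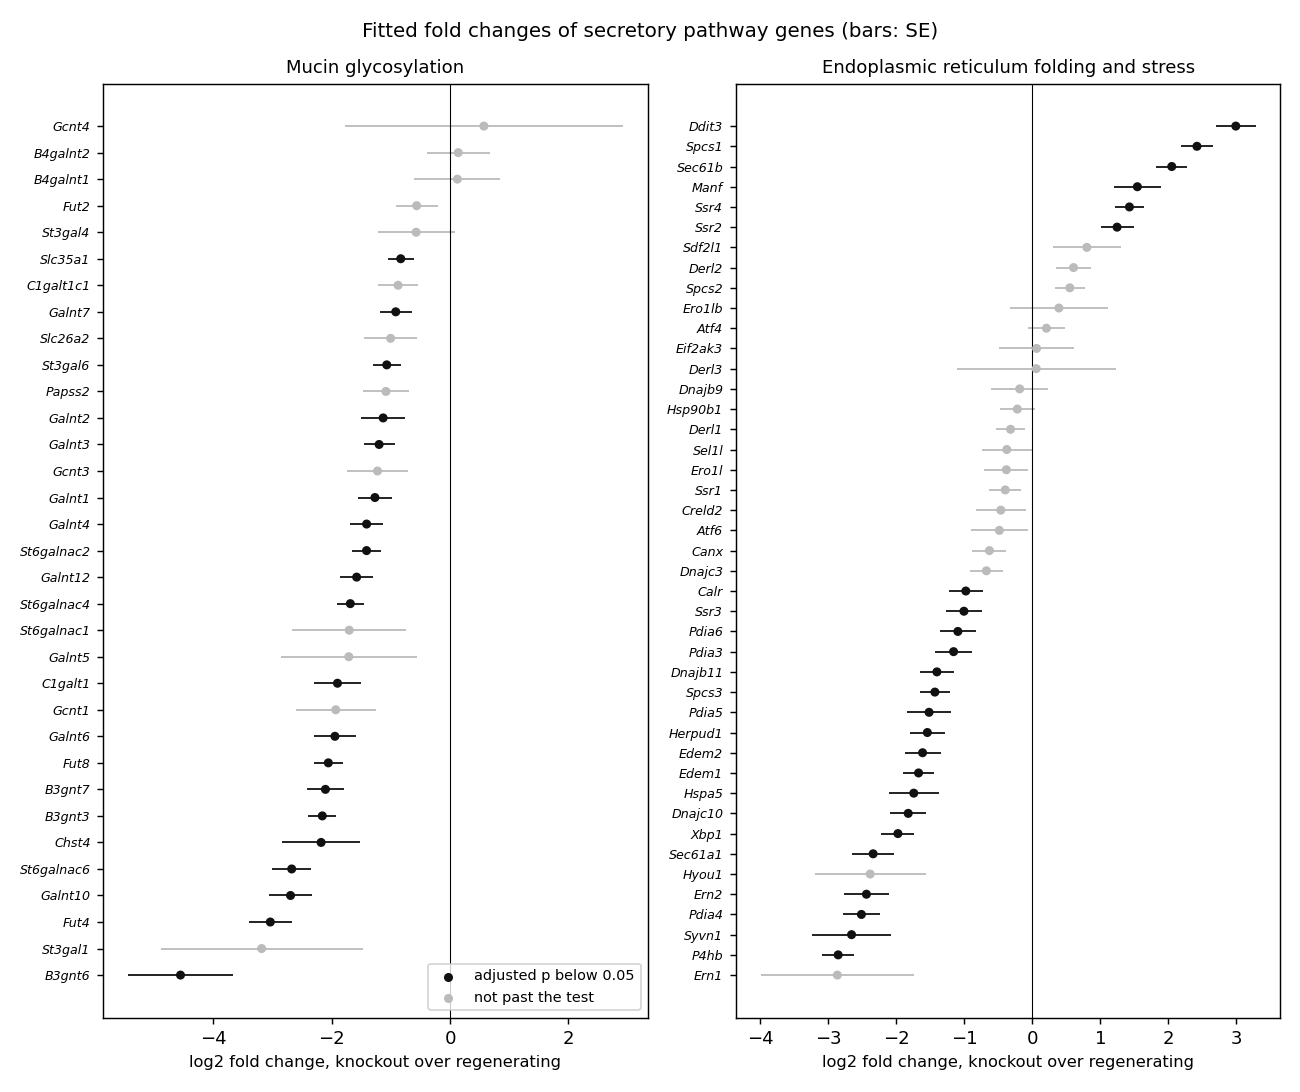
Fitted log2 fold change, knockout over regenerating, of each tested gene of mucin glycosylation (left, 33 genes) and of endoplasmic reticulum folding and stress (right, 43 genes); bars are SE, and dark points passed an adjusted p of 0.05. On the left 20 genes fell and none rose, and on the right 18 fell and 6 rose.

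Genes of protein folding in the endoplasmic reticulum changed in both directions, with more falls. Of 43 tested 18 fell and 6 rose (median -0.63). The disulfide isomerase gene P4hb had 239 and 194 CPM in knockout and 1437 and 1696 CPM in regenerating cells (-2.86 ± 0.24, adjusted p = 0.000205), and its relative Pdia4 had 48.6 and 52.9 CPM against 286 and 294 CPM (-2.51 ± 0.28). Sec61a1, the channel subunit of the translocon, had 140 and 91.1 CPM in knockout and 500 and 670 CPM in regenerating cells (-2.34 ± 0.31). Hspa5, the main chaperone of the compartment, stood at 613 and 494 CPM in knockout and 1588 and 2116 CPM in regenerating cells (-1.74, adjusted p = 0.00697), a call lost without knockout replicate 2. Against these, small subunits of the same machinery rose: Sec61b had 1200 and 1045 CPM in knockout and 298 and 245 CPM in regenerating cells (2.05 ± 0.23), and the signal peptidase subunit gene Spcs1 had 1210 and 999.5 CPM against 196 and 217 CPM (2.42 ± 0.23). Ddit3, which encodes the stress-induced factor CHOP, also rose, with 178 and 242 CPM in knockout and 22.9 and 29.8 CPM in regenerating cells (2.99 ± 0.29, adjusted p = 0.000238).

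The enteroendocrine hormone genes Pyy, Insl5 and Gcg rose in knockout cells. Pyy (chromosome 11, 102106676 to 102107832), which encodes peptide YY of colonic L cells, had 1454 and 1824 CPM in knockout, 20.04 and 4.22 CPM in regenerating and 40.7, 30.9 and 28.7 CPM in wild-type cells (7.08 ± 0.72, adjusted p = 0.00026). Insl5, another L cell hormone gene, had 157 and 259 CPM in knockout and 5.92 and 0.773 CPM in regenerating cells (5.95 ± 0.89, adjusted p = 0.00133). Gcg, the source of the glucagon-like peptides, had 108 and 225 CPM in knockout and 7.57 and 1.03 CPM in regenerating cells (5.27 ± 1.11, adjusted p = 0.00704). The knockout libraries of all 3 genes stood above every regenerating and every wild-type library. Of 26 endocrine genes tested 7 rose, none fell and 19 did not pass (median 2.37), and 4 rose without knockout replicate 2 or regenerating replicate 2. Neurog3, the factor that specifies endocrine cells, was named after its values were seen and had 3.99 and 3.12 CPM in knockout and 2.99 and 2.58 CPM in regenerating cells (adjusted p = 0.72). Of 21 tuft cell genes 4 rose and none fell, and the calls of those that rose were lost without regenerating replicate 1. Gng13 was at low level (2.17 and 4.58 CPM in knockout, 0.239 and 0.225 CPM in regenerating cells), as was Gfi1b. Ltc4s had 27.6 and 3.85 CPM in knockout, 0.987 and 0.967 CPM in regenerating and 7.81, 10.7 and 4.81 CPM in wild-type cells. Alox5ap had 16.9 and 5.59 CPM in knockout and 0.718 and 0.644 CPM in regenerating cells. The tuft channel gene Trpm5 stood at 0.0906 and 0.458 CPM in knockout and 0.419 and 0.0644 CPM in regenerating cells, near 0 in both, against 9.01, 17.8 and 8.61 CPM in wild type.

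Of 33 colonocyte genes tested 10 rose and 2 fell (median 0.92), with 6 rises without knockout replicate 1 and 4 without regenerating replicate 1. By library size there were 6 rises and 5 falls (median 0.12), and the median was 0.63 without regenerating replicate 1 and 2.36 without regenerating replicate 2. Fabp2, the intestinal fatty acid binding protein gene, had 1673 and 851 CPM in knockout and 47.9 and 175 CPM in regenerating cells (3.50 ± 0.74, adjusted p = 0.0071). Guca2b, which encodes uroguanylin, had 518 and 478 CPM in knockout and 92.9 and 98.2 CPM in regenerating cells (2.38 ± 0.35). Guca2a, given with the goblet genes, is in both lists and counts among the rises of each. The brush border villin gene Vil1 fell, with 170 and 111 CPM in knockout and 251 and 309 CPM in regenerating cells (-0.99); both falls of the list were lost without knockout replicate 2 or regenerating replicate 2. The carbonic anhydrase gene Car1, named after its values were seen, did not pass, with 7627 and 3720 CPM in knockout and 104.5 and 3098 CPM in regenerating cells. Fabp1, a gene of the proximal gut, had 438 reads in knockout and none in regenerating libraries, and was at least 429-fold higher (floor of 3 reads over the group). Its level was 12.8 and 27.2 CPM in knockout and 5.99, 8.15 and 0.942 CPM in wild type. Fabp6, the ileal bile acid binding protein gene, had 131 and 70.3 CPM in knockout and 7.12 and 5.48 CPM in regenerating cells (4.00 ± 0.53). In lipid handling as a whole 5 genes of 33 rose and 7 fell, with a median of 0.14 that turned to -0.66 by library size, to -0.12 without knockout replicate 1 and to -0.16 without regenerating replicate 1. Falls numbered 4 without knockout replicate 2 or regenerating replicate 2. They included the fatty acid oxidation genes Acadvl (-1.45) and Cpt2 (-1.39).

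Ion transport changed in both directions, with 6 rises and 8 falls among 26 genes (median -0.53). Without knockout replicate 1 there were 3 rises and 4 falls, without regenerating replicate 1 3 rises, and without regenerating replicate 2 5 falls. Fxyd4, a sodium pump regulator, had 356 and 748 CPM in knockout and 0.867 and 2.77 CPM in regenerating cells (8.25 ± 1.26, adjusted p = 0.00144). Fxyd3 of the same family had 298 and 382 CPM in knockout and 84.7 and 110.4 CPM in regenerating cells (1.80 ± 0.24). The potassium channel gene Kcnq1 had 34.7 and 34.6 CPM in knockout, 152 and 133 CPM in regenerating and 232, 346 and 224 CPM in wild-type cells (-2.04 ± 0.27, adjusted p = 0.000745). Hsd11b2, which guards the mineralocorticoid receptor from glucocorticoids, had 77.6 and 86.7 CPM in knockout and 297 and 396 CPM in regenerating cells (-2.08 ± 0.28). The chloride channel gene Cftr rose, with 127 and 123 CPM in knockout and 34.5 and 48.3 CPM in regenerating cells (1.59 ± 0.26).

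Among crypt base stem cell genes 6 of 20 fell and 1 rose (median -0.19, or 0.06 without regenerating replicate 2). Ephb3, an ephrin receptor that positions cells along the crypt, had 16.5 and 16.1 CPM in knockout, 76.7 and 98.0 CPM in regenerating and 100.3, 95.3 and 82.1 CPM in wild-type cells (-2.42 ± 0.25, adjusted p = 0.000271). Cdca7, a MYC-responsive gene, had 29.9 and 32.0 CPM in knockout and 262 and 152 CPM in regenerating cells (-2.74 ± 0.34, adjusted p = 0.000552). Sox9, a factor of crypt base and secretory progenitors, had 108 and 113 CPM in knockout and 266 and 297 CPM in regenerating cells (-1.35 ± 0.25). For these 3 genes regenerating cells lay close to the wild-type range and knockout cells below it. Smoc2, named after its values were seen, showed another pattern, with 70.4 and 69.8 CPM in knockout and 81.7 and 110 CPM in regenerating cells (-0.45, adjusted p = 0.191) and 348, 329 and 264 CPM in wild type. Phlda1 was the rise, with 741 and 695 CPM in knockout and 116 and 124 CPM in regenerating cells (2.58 ± 0.36, or 1.47 with offsets for genomic span). Olfm4 was at or near 0, with no reads in knockout and 3 in each regenerating library.

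Wnt effectors moved in both directions, with 6 rises and 4 falls among 23 genes and a median of 0.24 that turned to -0.53 by library size. Myc had 28.8 and 32.6 CPM in knockout, 164 and 93.6 CPM in regenerating and 186, 184 and 116.5 CPM in wild-type cells (-2.07 ± 0.34, adjusted p = 0.00214). Tcf7, a nuclear effector of beta-catenin, had 1.54 and 3.21 CPM in knockout and 15.8 and 18.1 CPM in regenerating cells (-2.84 ± 0.58). The related Tcf7l1 and Tcf7l2 rose (1.63 and 1.47), with 143 and 271 CPM of Tcf7l1 in knockout against 64.6 and 69.0 CPM in regenerating cells; both calls and all the other rises of the list were lost by library size. The median was -0.04 without knockout replicate 1. The rises numbered 1 without regenerating replicate 1 and 2 without regenerating replicate 2 or knockout replicate 1.

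In the Notch pathway 6 of 25 genes fell (24%, against 16% of all genes tested) and 1 rose, with a median of -0.76. By library size 13 fell. With any 1 of the 4 libraries left out fewer fell than with all, and the median was -0.71 to -1.41. Hes1, the target through which Notch represses secretory fate, was the rise, with 707 and 603 CPM in knockout, 177 and 131 CPM in regenerating and 287, 405 and 305 CPM in wild-type cells (2.09 ± 0.27, adjusted p = 0.000663). Its knockout values stood above both other groups and its regenerating values below them. With offsets for genomic span its log2 fold change was 1.01 (adjusted p = 0.0153). Dlk1, a non-canonical Notch ligand, had 0.453 and 4.76 CPM in knockout and 102 and 40.3 CPM in regenerating cells (-4.77 ± 0.92, adjusted p = 0.00451). Ncstn, a subunit of the gamma-secretase that releases the Notch intracellular domain, had 26.5 and 22.8 CPM in knockout and 168.5 and 161 CPM in regenerating cells (-2.74 ± 0.24, adjusted p = 0.000205), and the glycosyltransferase gene Rfng had 11.2 and 9.35 CPM against 44.0 and 41.1 CPM (-2.05 ± 0.28).

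The EGF-family ligands Areg and Hbegf rose in knockout cells. Areg, which encodes amphiregulin, had 1212 and 1666 CPM in knockout, 168 and 150.2 CPM in regenerating and 27.2, 110 and 89.8 CPM in wild-type cells (3.18 ± 0.57, adjusted p = 0.0031). Hbegf had 2332 and 3747 CPM in knockout and 335 and 245 CPM in regenerating cells (3.39 ± 0.53, adjusted p = 0.00168). The receptor gene Erbb3 went the other way, with 2.26 and 3.85 CPM in knockout and 22.9 and 24.4 CPM in regenerating cells (-2.95 ± 0.44), and so did the ErbB inhibitors Lrig1 (-1.69) and Lrig3 (-1.32) and the co-receptor Erbb2 (-0.97); of these 4, only Erbb3 and Lrig3 held whichever library was left out. In all, 2 of 14 genes rose and 4 fell, and the median of 0.75 was -0.05 by library size and -0.29 without knockout replicate 2. Without knockout replicate 1 there were 2 falls. Of 18 genes of BMP signalling 4 rose and 2 fell (median 0.69, or -0.09 by library size), with 1 fall without knockout replicate 1. Id2, an inhibitor of helix-loop-helix factors, had 208 and 167 CPM in knockout and 25.5 and 27.3 CPM in regenerating cells (2.83 ± 0.34, adjusted p = 0.0005). Its relatives Id1 (2.29) and Id3 (2.22) also rose, but their calls ended with offsets for genomic span (adjusted p = 0.17 and 0.12).

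The interleukin 11 receptor gene Il11ra1 fell, with 4.62 and 10.7 CPM in knockout, 28.9 and 34.2 CPM in regenerating and 3.93, 13.5 and 9.17 CPM in wild-type cells (-2.04 ± 0.62, adjusted p = 0.0346). The groups did not overlap, but the call was lost without knockout replicate 1, either regenerating replicate or wild-type replicate 3, with an adjusted p of up to 0.175 over all alternatives. Stat3, which carries gp130 signals, had 36.6 CPM in both knockout libraries and 110.3 and 97.5 CPM in regenerating cells (-1.50 ± 0.25, adjusted p = 0.00227). Of 15 genes of the list the phosphatase Ptpn11 was the 1 rise (1.26, adjusted p = 0.0496, lost without any 1 library other than knockout replicate 2) and these were the 2 falls; the ligand Il11 was near 0 in both groups. Among 23 genes of interleukin 22 signalling and antimicrobial defence 7 rose and 2 fell (median 1.02). Without knockout replicate 1 the rises were 4 and the median -0.32, and 1 fall was left without any 1 of the 4 libraries. Wfdc2, an epithelial protease inhibitor, had 2442 and 3688 CPM in knockout and 494 and 415 CPM in regenerating cells (2.75 ± 0.37), and Duox2, which makes hydrogen peroxide at the surface, had 1.63 and 4.58 CPM against 13.9 and 21.9 CPM (-2.53 ± 0.51). S100a8 and S100a9 also count in this list and are given with the neutrophil genes.

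Genes associated with fetal-like repair of the epithelium were higher in knockout than in regenerating cells where they passed, with 1 exception. Of 24 tested 12 rose and 1 fell (median 1.97), with 6 rises without either knockout replicate or without regenerating replicate 2, 7 without regenerating replicate 1 and 6 by library size. S100a6 had 8208 and 13480 CPM in knockout, 1015 and 1211 CPM in regenerating and 625, 571 and 1010 CPM in wild-type cells (3.28 ± 0.38, adjusted p = 0.000406). With offsets for genomic span its change was 1.81. S100a11, of the same family of calcium-binding proteins, had 1797 and 1522 CPM in knockout and 156 and 161 CPM in regenerating cells (3.39 ± 0.26, adjusted p = 0.000205). Krt19 had 10220 and 8808 CPM in knockout and 3136 and 3464 CPM in regenerating cells (1.53 ± 0.24). Ly6a, which encodes the Sca-1 antigen, was named after its values were seen; it had 2889 and 839 CPM in knockout and 383 and 271 CPM in regenerating cells and did not pass (2.51, adjusted p = 0.081). Among 21 YAP and TEAD targets 3 rose (14.3%, against 15.4% of all genes tested) and none fell. The rises were Areg, Birc5 (697 and 565 CPM in knockout, 183 and 109 CPM in regenerating cells) and Edn1 (246 and 454 CPM against 23.9 and 20.1 CPM), of which Edn1 was lost without any 1 of the 4 libraries.

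**Figure D3:**
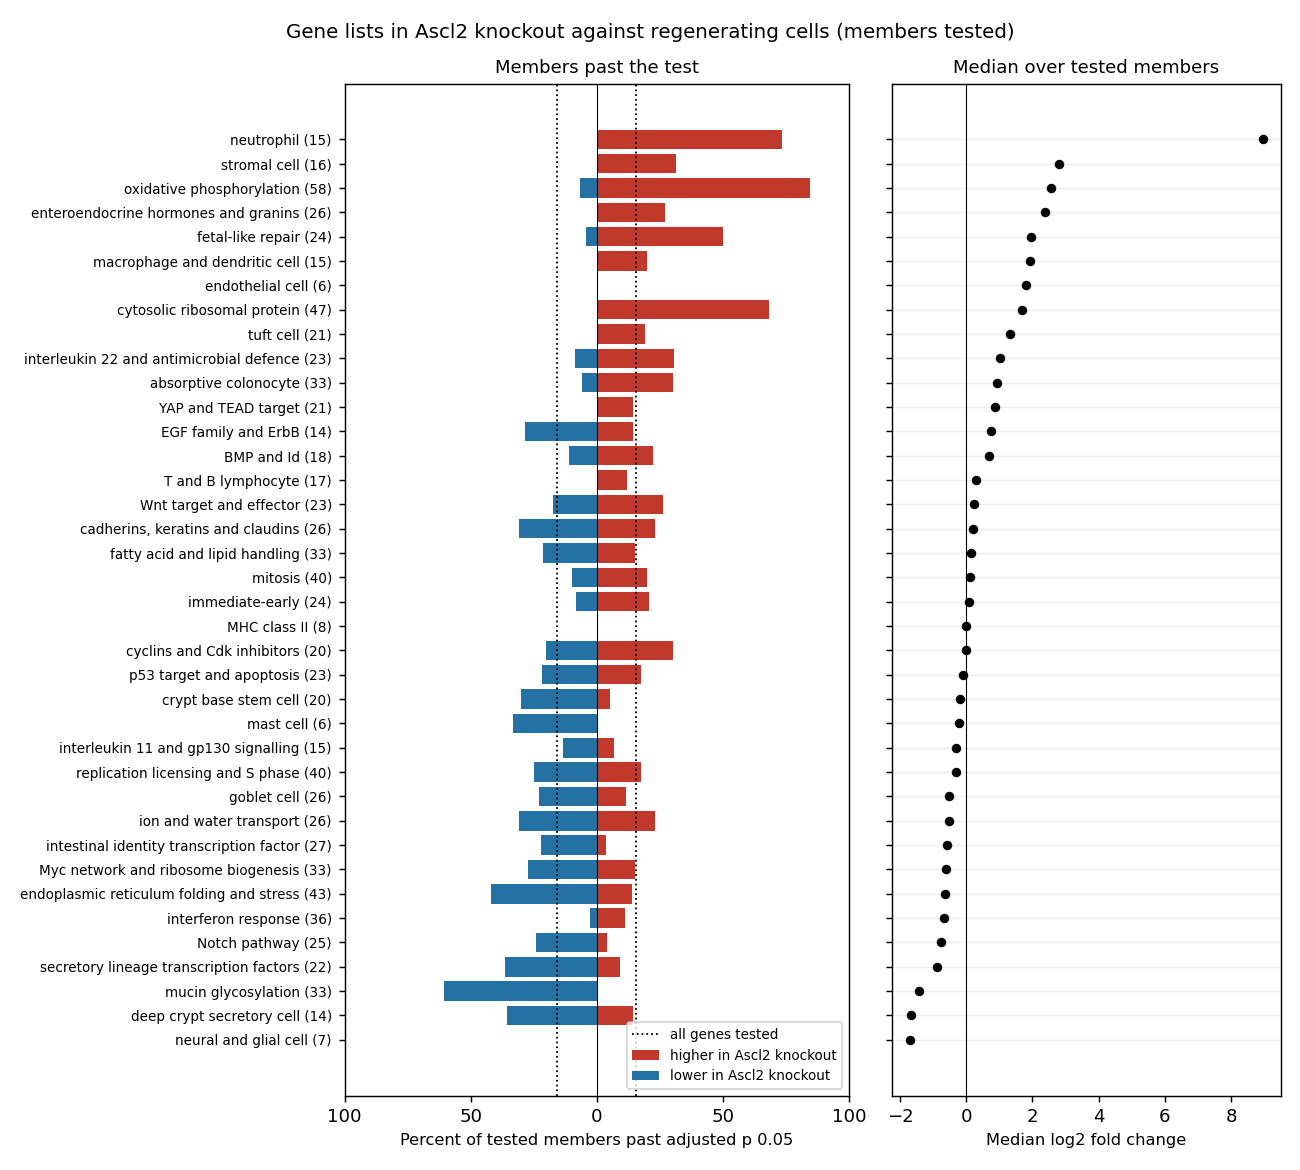
Gene lists with at least 6 tested members, sorted by median. Left, percent of tested members past an adjusted p of 0.05 in each direction, with dotted lines at the 15.4 and 16% of all genes; right, median log2 fold change. Oxidative phosphorylation, neutrophil and ribosomal protein genes lie farthest to the right of 0 in calls, the neutrophil genes having passed the filter on low counts mostly through the knockout, and mucin glycosylation farthest to the left; by library size the medians of the Wnt, EGF, BMP, mitosis, immediate-early, lipid, lymphocyte and junction lists turn negative.

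Of 27 intestinal identity factors 6 fell and 1 rose (median -0.58); 15 fell and none rose by library size (median -1.38), 3 fell without regenerating replicate 2, and the rise was lost without any 1 of the 4 libraries. Cdx1, a caudal homeobox factor, had 526 and 524 CPM in knockout and 1070 and 1279 CPM in regenerating cells (-1.16 ± 0.22, adjusted p = 0.00419). Junction genes were split, with 6 rises and 8 falls among 26 and a median of 0.20, which was -0.60 by library size and -0.03 without knockout replicate 2. Without regenerating replicate 2 there were 5 falls. Cldn2 (X chromosome, 139800808 to 139811386), the pore-forming claudin of the crypt base, had 122 and 116 CPM in knockout, 479 and 463 CPM in regenerating and 583, 533 and 410 CPM in wild-type cells (-1.99 ± 0.24, adjusted p = 0.000498). The plakoglobin gene Jup had 33.0 and 46.5 CPM in knockout and 120 and 177 CPM in regenerating cells (-1.90 ± 0.30). Cldn3 had 3332 and 3245 CPM in knockout and 1030 and 1443 CPM in regenerating cells (1.41 ± 0.25), a direction that offsets for genomic span turned to -0.21.

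Genes of growth and division did not move as one. In the Myc network and ribosome biogenesis 9 of 33 genes fell and 5 rose (median -0.61), with 1 rise without regenerating replicate 2, 3 without any 1 of the other libraries of the 2 groups, and 4 falls without knockout replicate 2 or 5 without either regenerating replicate. Bop1, a factor of large-subunit assembly, had 33.4 and 19.5 CPM in knockout and 126 and 113 CPM in regenerating cells (-2.17 ± 0.41), and Nhp2, a small protein of box H/ACA particles, had 985 and 865 CPM against 310 and 183 CPM (1.91 ± 0.33). Of 40 replication genes 10 fell and 7 rose, with 4 falls without knockout replicate 1 and 3 without knockout replicate 2 or regenerating replicate 1. Rises numbered 3 without knockout replicate 1, 1 without knockout replicate 2 or regenerating replicate 2, and 8 without regenerating replicate 1. By library size there were 1 rise and 19 falls. The ribonucleotide reductase gene Rrm1 had 32.5 and 42.0 CPM in knockout and 158 and 97.7 CPM in regenerating cells (-1.78 ± 0.31), while Pola1, the catalytic subunit of the DNA polymerase alpha and primase complex, had 45.02 and 61.67 CPM against 12.7 and 14.6 CPM (1.97 ± 0.33). Of 40 mitosis genes 8 rose and 4 fell (median 0.12, or -0.67 by library size and -0.11 without regenerating replicate 2). By library size the balance turned, to 5 rises and 15 falls. Rises numbered 5 without knockout replicate 1 or regenerating replicate 2, and falls 2 without knockout replicate 2 and 1 without regenerating replicate 1. Spc24 of the kinetochore had 383 and 362 CPM in knockout and 127 and 84.3 CPM in regenerating cells (1.82 ± 0.26), and the kinesin gene Kif20a had 5.98 and 4.03 CPM against 48.3 and 32.9 CPM (-3.02 ± 0.35, adjusted p = 0.000411).

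Cdkn1a, which encodes the cell cycle inhibitor p21, rose, with 1189 and 775 CPM in knockout, 46.8 and 126 CPM in regenerating and 146.5, 85.1 and 204 CPM in wild-type cells (3.51 ± 0.55, adjusted p = 0.0017). Bax, a pro-apoptotic p53 target, had 510.4 and 473 CPM in knockout and 169 and 138 CPM in regenerating cells (1.68 ± 0.22). Of 23 p53 and apoptosis genes 4 rose and 5 fell, with 2 or 3 falls when any 1 of the 4 libraries was left out. Of 20 cyclin and inhibitor genes 6 rose and 4 fell, with 1 or 2 rises and 2 falls when any 1 of the 4 libraries was left out; Cdkn1a held in each case. Immediate-early genes gave 5 rises and 2 falls among 24 (median 0.09, or -0.71 by library size). Rises ranged over 2 to 9 and falls over 0 to 3 when any 1 library was left out, with 9 rises without wild-type replicate 1 and 2 without regenerating replicate 2. Klf2 had 266 and 339 CPM in knockout and 37.1 and 45.6 CPM in regenerating cells (2.87 ± 0.53), whereas Jun had 637 and 863 CPM against 1545 and 1647 CPM (-1.09 ± 0.30, adjusted p = 0.0221), a call lost without knockout replicate 1 or either regenerating replicate. Of 36 interferon response genes 4 rose and 1 fell, with a median of -0.68. Both knockout libraries lay below both regenerating ones in 15 of the 36 and above them in 10, against 37 and 32.8% of all genes tested. No rise was left without regenerating replicate 2, and 1 without knockout replicate 1 or regenerating replicate 1. Falls numbered 9, against 1 rise, by library size, and 3 without wild-type replicate 1, 6 without wild-type replicate 2 and 0 without any 1 of the other libraries. None of the 8 MHC class II genes tested passed with edgeR, at an unadjusted p below 0.05 or with DESeq2.

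Subunits of the respiratory chain were higher in knockout cells almost throughout. Of 58 nuclear genes of oxidative phosphorylation 49 rose and 4 fell, with a median log2 fold change of 2.56. Ndufa12 of complex I had 929 and 764 CPM in knockout, 84.9 and 80.5 CPM in regenerating and 132, 101 and 126 CPM in wild-type cells (3.36 ± 0.25, adjusted p = 0.000205). Ndufs6 had 1701 and 1448 CPM in knockout and 208 and 184 CPM in regenerating cells (3.01 ± 0.24). The falls were Ndufs1, Sdha, Sdhc and Atp5b, of which 2 were left without knockout replicate 2 or regenerating replicate 1. Ndufs1, the largest subunit of complex I, had 48.7 and 43.6 CPM in knockout and 153 and 137 CPM in regenerating cells (-1.65 ± 0.22). Of 47 cytosolic ribosomal protein genes 32 rose and none fell (median 1.68); Rplp2 had 664 and 634 CPM in knockout and 112 and 95.2 CPM in regenerating cells (2.65 ± 0.22). Ribosomal protein genes have many processed copies in the genome, so their unique counts are uncertain.

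Fold changes varied with the genomic span of genes, though not steadily from the shortest to the longest. The 993 tested genes that span up to 3 kb in RefSeq had a median log2 fold change of 1.54. Of them 40.2% were higher and 2.82% lower in knockout. The median was 0.37 at 3 to 10 kb and -0.29 at 10 to 30 kb. The 3807 genes of 30 to 100 kb had a median of -0.32, with 8.3% higher and 18.7% lower. The 1690 genes over 100 kb had a median of -0.02, with 7.63% higher and 8.76% lower. Each library was then given an offset for genomic span, an alternative added after the data were seen. The medians up to 3 kb and at 30 to 100 kb were 0.12 and -0.01. Since the offsets were fitted to remove the trend with span, medians near 0 follow from the method. Calls then numbered 3735 (26.8%), 1932 higher (13.9%) and 1803 lower (13%), of which 3339 were shared in direction with those above. With these offsets oxidative phosphorylation still gave 48 rises and 3 falls (median 2.03), ribosomal proteins 21 rises and no fall (median 0.91), mucin glycosylation a median of -1.36 and the deep crypt secretory list 5 falls. Immediate-early genes turned to 3 rises and 7 falls (median -0.30), and the median of the junction list turned to -0.23. Those of the p53 and cyclin lists, -0.09 and -0.02 as fitted, turned to 0.07 and 0.11.

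**Figure D4:**
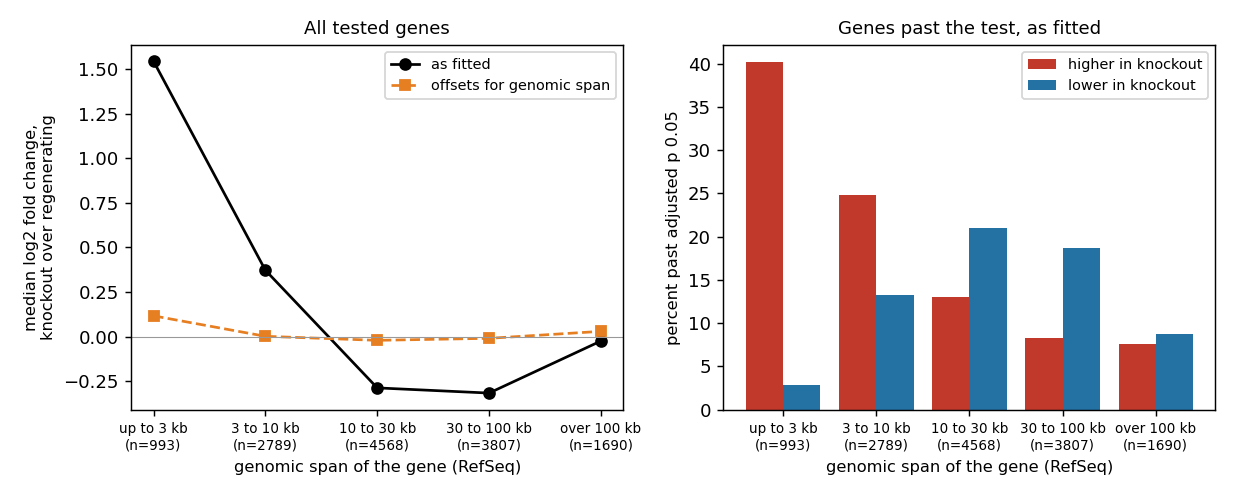
All tested genes by genomic span. Left, median log2 fold change, knockout over regenerating, as fitted and with offsets for span; right, percent of genes past an adjusted p of 0.05 in each direction as fitted. The median is 1.54 for genes up to 3 kb, -0.32 at 30 to 100 kb and -0.02 over 100 kb as fitted. With the offsets, which were fitted to remove the trend with span, it is near 0 in every bin.

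Genes of neutrophils were among the largest rises. Camp, the cathelicidin gene of neutrophil granules, had 123 and 74.9 CPM in knockout and no reads in regenerating cells, and was at least 2130-fold higher. Elane, neutrophil elastase, had 28.0 and 14.4 CPM in knockout and no reads in regenerating cells (at least 456-fold). Ngp, another granule gene, had 206 and 99.0 CPM in knockout and 0 and 0.0966 CPM in regenerating cells, a ratio of 3280 with a 95% counting interval of 1120 to 15900. S100a8 (375 and 244 CPM in knockout, 0.15 and 0 CPM in regenerating cells) and S100a9 (344 and 196 CPM in knockout, 0 and 0.193 CPM in regenerating cells) encode the subunits of calprotectin, and both fitted changes passed (adjusted p = 0.000205 and 0.000349). All wild-type libraries had 0.408 CPM or less of these 5 genes. Of the 20 neutrophil genes listed 15 passed the filter on low counts, many of them through the knockout libraries alone, so that their direction was largely fixed by the filter. Of these, 11 rose; 6 rose without either knockout replicate or without regenerating replicate 2. Their summed level was 1313 and 720 CPM in knockout and 9.03 and 3.25 CPM in regenerating cells. Listed neutrophil genes below the filter were nearly absent, with 6 and 7 reads of Csf3r, 0 and 2 of Mmp9 and 1 and 0 of Stfa2l1 in knockout and none in regenerating cells, and 1 and 2 reads of Cxcr2 in knockout against 0 and 8 in regenerating cells.

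**Figure D5:**
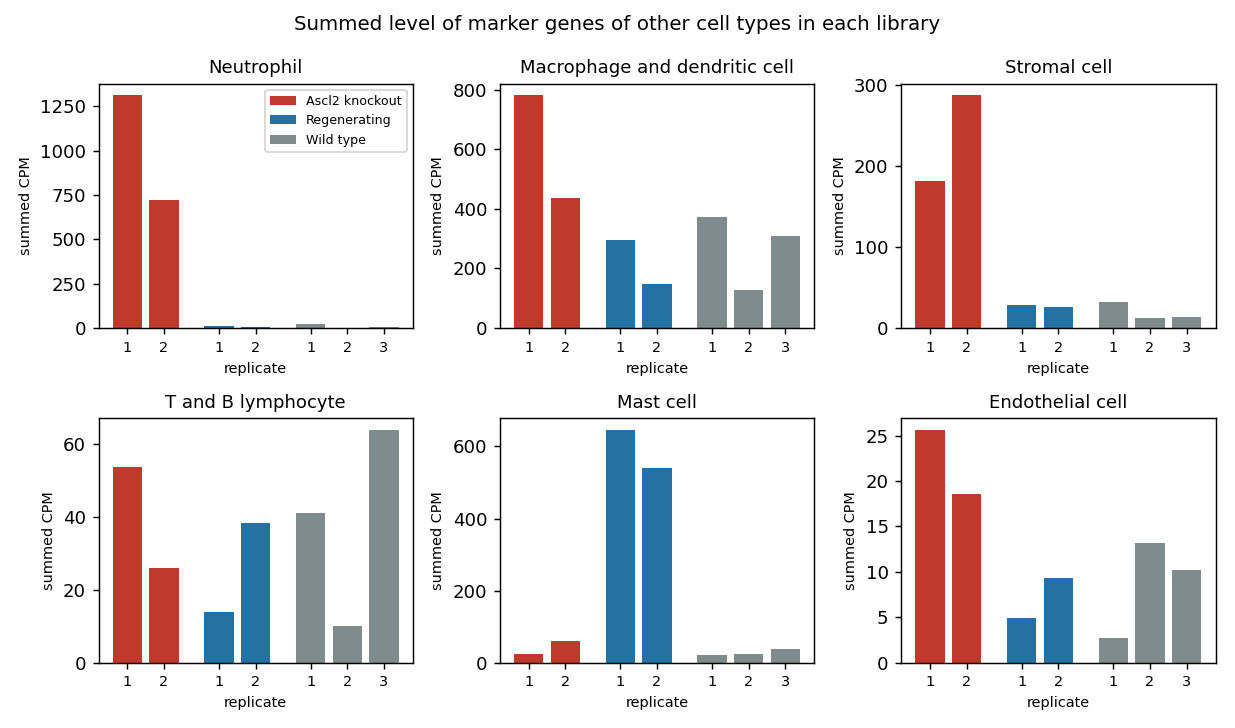
Summed CPM of the marker genes of 6 other cell types in each library (bars; 2 Ascl2 knockout, 2 regenerating and 3 wild type). Neutrophil markers sum to 1313 and 720 CPM in knockout and to under 21 CPM in every other library. The mast cell list is high in regenerating cells, at 646 and 541 CPM, mostly through Cma1 (599 and 467 CPM). Its members Cpa3, Mcpt4 and Tpsab1 have no reads, and Ms4a2 has 3 and 8 reads in regenerating cells.

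Other lineages gave smaller amounts. Some of their genes passed the filter on low counts through the knockout libraries alone, so that the filter largely fixed their direction. Among them were the stromal gene Col3a1, with 8.15 and 12.65 CPM in knockout and 0.263 CPM or less in every other library, and Cd79a. Both are counted as rises here. Stromal markers summed to 182 and 287 CPM in knockout and to 28.1 and 25.3 CPM in regenerating cells, with 5 of 16 genes higher, such as the proteoglycan gene Dcn (91.7 and 161 CPM in knockout, 4.67 and 4.38 CPM in regenerating cells); none of the 5 held without either regenerating replicate. Macrophage markers summed to 782 and 438 CPM in knockout and 295 and 149 CPM in regenerating cells, with Fcer1g, Aif1 and Tyrobp as the 3 rises of 15, all lost without knockout replicate 1 or either regenerating replicate. Lymphocyte markers summed to 53.5 and 25.9 CPM in knockout and 14 and 38.4 CPM in regenerating cells and overlapped. The B lineage genes Cd79a and Mzb1 passed, with 2.63 and 4.67 CPM and 2.45 and 3.12 CPM in knockout and no reads in regenerating cells, and were lost without any 1 of the 4 libraries. In the mast cell list 6 of 12 genes were tested, of which Cma1 and Kit fell and 4 did not pass. Below the filter, Cpa3, Mcpt4 and Tpsab1 had no reads in any library. Ms4a2 had 0 and 2 reads in knockout and 3 and 8 in regenerating cells, and Fcer1a 2 and 3 against 0 and 6. Mcpt2 had 0 and 0 reads in knockout, 0 and 2 in regenerating cells and 45 in wild-type replicate 3. Haemoglobin genes had no reads in any library. Endothelial markers stayed at 25.6 CPM or less in sum. The part of neutrophil, stromal, macrophage and mast cell RNA in the other differences was not tested. S100a8, S100a9 and Lcn2 are in both the neutrophil and the antimicrobial list.

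Since Ascl2 binds E-boxes, the 250 bases before the annotated start of each tested gene were searched for CAGCTG, a form of E-box that reads the same on both strands. RefSeq windows (GRCm38.p6, the first one listed for each gene) were matched for 10999 tested genes. The letters stood in 10% of 1801 windows of genes lower in knockout, 10.8% of 1744 windows of genes higher in knockout and 11.7% of all 10999. The windows of 4 genes described above are printed as examples, 2 lower in knockout (Cldn2, which holds the letters, and Atoh1, which does not) and 2 higher (Areg with 1 match and S100a8 with 2). Each is 5′ to 3′ on the gene's strand, which is the plus strand in all 4, and capitals mark CAGCTG. A match describes the letters and is not evidence of binding.
Cldn2, chrX:139800558-139800807: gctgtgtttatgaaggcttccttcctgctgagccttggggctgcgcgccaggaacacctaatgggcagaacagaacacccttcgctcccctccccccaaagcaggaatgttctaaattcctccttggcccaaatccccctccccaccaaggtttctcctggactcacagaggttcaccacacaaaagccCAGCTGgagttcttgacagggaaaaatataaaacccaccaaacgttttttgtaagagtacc
Atoh1, chr6:64728875-64729124: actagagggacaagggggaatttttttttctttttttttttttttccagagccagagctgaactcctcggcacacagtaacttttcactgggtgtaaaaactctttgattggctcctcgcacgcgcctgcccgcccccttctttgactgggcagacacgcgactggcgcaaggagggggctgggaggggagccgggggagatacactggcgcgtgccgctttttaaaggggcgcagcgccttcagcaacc
Areg, chr5:91139349-91139598: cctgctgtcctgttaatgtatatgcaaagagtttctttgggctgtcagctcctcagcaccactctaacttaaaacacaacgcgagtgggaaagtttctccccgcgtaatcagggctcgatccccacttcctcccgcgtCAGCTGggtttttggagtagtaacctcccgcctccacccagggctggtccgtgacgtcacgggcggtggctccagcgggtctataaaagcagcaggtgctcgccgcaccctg
S100a8, chr3:90668821-90669070: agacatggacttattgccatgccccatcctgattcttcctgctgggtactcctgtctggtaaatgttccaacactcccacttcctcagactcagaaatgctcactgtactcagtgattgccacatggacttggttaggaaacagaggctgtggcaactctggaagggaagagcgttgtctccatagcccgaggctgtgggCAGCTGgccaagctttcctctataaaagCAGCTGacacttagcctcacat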

How the data were processed

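RNA from sorted colonic epithelial cells was sequenced by the submitters. The deposited table holds raw counts of reads per gene; reads were aligned with STAR 2.5.3a and counted with HTSeq against GRCm38 or mm10, per the submitters' processing notes, and the annotation release and strand setting are not given in the sources used here. Entries that name no gene, which were 7.71 and 9.77% (no feature) and 51.2 and 51.4% (several places) of knockout reads, stayed out of library sizes and tests.

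Counts of 7 adult libraries were fitted with a group term in edgeR 4.0.16 (R 4.3.3) after filterByExpr and TMM scaling, and Ascl2 knockout was tested over regenerating with the quasi-likelihood F test and Benjamini-Hochberg adjustment at 0.05. SE is the absolute log2 fold change over the square root of F. Folds against a group with no reads use a floor of 3 reads over the group; these bounds and the 95% intervals reflect only counting error. Alternatives were DESeq2 1.42.0, other scalings and filters, 4 libraries only, a replicate block, a test against a 2-fold change, each library left out and, chosen after seeing the data, offsets for genomic span. Replicates differed beyond sampling noise (chi-square per gene 89.2 in knockout and 184 in regenerating pairs). RefSeq GRCm38.p6 coordinates were matched for 23902 of 24062 genes (99.3%).

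Genes and lists were chosen with earlier results of these data known. Named genes are the checks (Ascl2, Lgr5, Xist, Ddx3y), the 10 largest called rises and falls with at least 10 CPM, the 8 most abundant in each direction, and up to 4 rises and 4 falls by smallest p in each of 40 lists; not all are named, and some results are not reported here. Tests on simulated data used the same script.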

Additional observations from a re-analysis of the deposited data

Results flagged for a closer look

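Reads that aligned to several places, which the gene counts leave out, made up 51.2% of reads in Ascl2 knockout replicate 1 and 51.4% in replicate 2. Both values lay above those of every other adult library, which were 38.6 and 36.4% in regenerating cells and 39.1 to 40.2% in wild-type cells. Their part in the differences was not tested.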

How the results depend on the processing

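By library size alone 1070 genes were higher and 4408 lower in knockout cells, and a test against a 2-fold change called 1614 genes (977 higher, 637 lower). Leaving out 1 library in turn gave 2446 to 4668 calls, 1191 to 2314 higher and 1255 to 2354 lower. The replicate block gave 4084 calls (2005 higher, 2079 lower). Same-numbered deviations correlated at 0.0271 over genes. With 1 replicate difference in each group, this value cannot decide whether libraries of the same number were paired. By library size the log2 fold change of Lgr5 was -0.14, of Neurog3 -0.45, of Trpm5 -0.60 and of Spink4 -0.76, and without the filter on low counts that of Spink4 was -0.0649. With 1 library left out Lgr5 ranged from -0.28 to 1.90, Trpm5 from -1.40 to 1.99 and Spink4 from -0.57 to 0.41. Lgr5, Neurog3, Trpm5 and Spink4 passed no test as reported. With offsets for genomic span Cldn3 was at -0.21 and Neurog3 at -1.03. The cause was not tested. With 2 libraries a group and a common coefficient of variation of 0.513, small differences were not detectable.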
